A study of Homo sapiens with 6 samples.

Results

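The genes described here are the cyclins that drive the cell division cycle and the kinases CDK4 and CDK6. The 10 genes were chosen by name, as 3 D-type cyclins (CCND1, CCND2 and CCND3), 2 E-type cyclins (CCNE1 and CCNE2), cyclin A2 (CCNA2), 2 B-type cyclins (CCNB1 and CCNB2), CDK4 and CDK6. Each was found by its GENCODE symbol among the 37339 counted transcripts that could be matched to an annotation. A counted transcript was found for 9 of the 10 genes, and 8 had counts in both assays. CCNA2 has 1 annotated transcript (ENST00000274026), which was not among those counted, so CCNA2 has no value here.

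The samples were 2 PRO-seq and 4 total RNA-seq libraries of untreated K562 cells, a human chronic myelogenous leukemia line grown in RPMI-1640 medium. PRO-seq maps engaged RNA polymerases through the nascent RNA they hold, while RNA-seq of rRNA-depleted total RNA measures the RNA present at steady state. All libraries came from cells of 1 flask, so the spread between libraries, on which every p-value below rests, is technical. The RNA-seq libraries held between 5732780 and 9002746 counts on transcription units (TUs), and the PRO-seq libraries held 6993816 and 7245632. Erythroid genes used as markers of K562 cells were abundant in RNA-seq, from 77.2 to 80.7 TPM (the share of transcripts, scaled to the same sum in every library) for TAL1 up to 5973 to 6572 TPM for HBG2, with GATA1, KLF1, HBG1 and HBE1 in between. The T cell gene CD3E had 6 counts and the B cell gene MS4A1 had 2 counts over the 4 RNA-seq libraries together.

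Cyclins are the regulatory subunits of the cyclin-dependent kinases, and the order in which they accumulate sets the order of cell cycle events. D-type cyclins bind CDK4 and CDK6 in G1 and start the phosphorylation of the retinoblastoma protein, E-type cyclins bind CDK2 at the entry into S phase, cyclin A2 serves CDK2 and CDK1 through S and G2 phase, and B-type cyclins bind CDK1 to bring cells into mitosis. In a growing culture such as K562, cells of every phase are mixed, so each value is an average over the cycle.

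RNA and transcription were ordered differently among these genes. In RNA-seq the order of mean levels per length was CDK4, CCNB1, CCNB2, CCND3, CCND2, CDK6, CCNE1, CCNE2 and CCND1, and only CCND2 and CDK6 overlapped between libraries among neighbours. In PRO-seq the order was CCNB1, CCND1, CDK6, CCNB2, CDK4, CCNE1, CCNE2 and CCND3, in which CDK6 overlapped CCNB2, CCNB2 overlapped CDK4 and CDK4 overlapped CCNE1 among neighbours. CCND1 was thus second in transcription and last in RNA on the counted windows. In RNA-seq, TPM was computed per exon length. In PRO-seq it was computed per length of the counted window, the span of the TU less 500 bp at either end. The PRO-seq levels of CCND3 and CDK4 rest on windows that lie mostly outside their canonical transcripts, as described below. With all counts placed in the canonical part, CCND3 would be first in PRO-seq (590 and 631 TPM) and CDK4 the next (370 and 299 TPM), with CCND1 after CCNB1, and CCND3 would pass CCNB2 in RNA-seq.

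**Figure D1:**
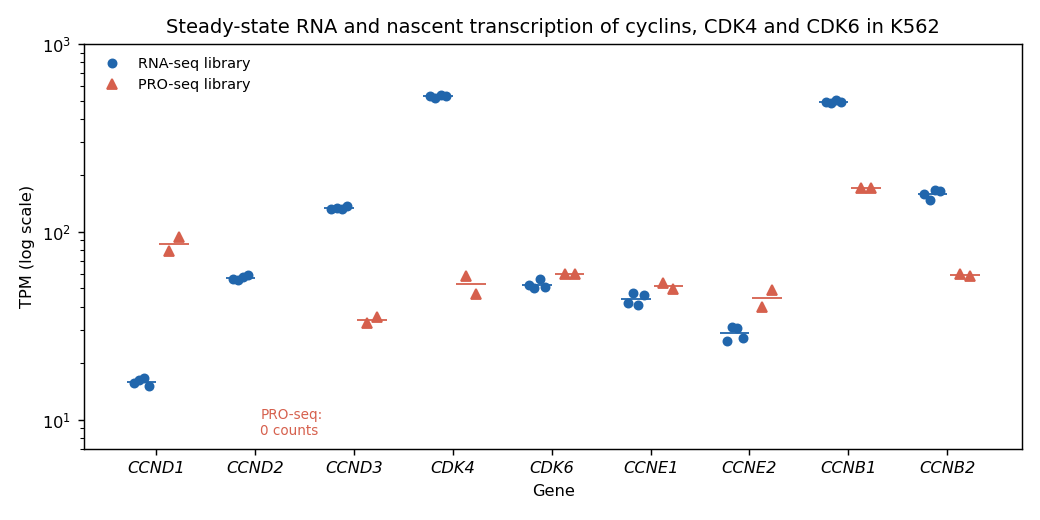
Level of each gene in TPM (log axis) in the 4 RNA-seq libraries (blue circles) and the 2 PRO-seq libraries (red triangles), with horizontal lines at the means. CCND1 had the lowest RNA level and, on the counted windows, the second highest PRO-seq level, and CCND2 had 0 PRO-seq counts.

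The relative half-life of an RNA was taken as its RNA-seq level over its PRO-seq level. This is proportional to half-life where synthesis and decay are balanced and PRO-seq follows the rate of synthesis. The authors point out that PRO-seq reflects the rate of elongation too, which was not measured here. Transcription in this text means the PRO-seq level. It is given on the log2 scale against the median mRNA, with its standard error (SE) from edgeR's quasi-likelihood test and p-values adjusted by Benjamini-Hochberg over all 9929 TUs tested. A TU was tested if its PRO-seq level was above 10 TPM and its RNA-seq level above 1 TPM, which held for 8 of the 10 genes. Of these 8, CDK4, CCND3, CCNB1, CCNB2, CDK6 and CCNE1 were above the median mRNA, CCND1 was below it, and CCNE2 was not called. Among the 8733 mRNAs tested, 45.4% were called above and 44.9% below, so being called is common in these data. The direction for CCND3 turned with the length assumed, as given below. The median of the 8 genes was 1.26, beside 0.00 for all mRNAs, whose 5th and 95th percentiles were -2.75 and 2.77. For the 6 of the 8 genes counted mostly within their canonical transcript, a subset chosen after the values were seen, the median was 0.43.

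CCND1 RNA was low for its transcription, and CCND1 was the 1 gene of the 8 tested that was called below the median mRNA on the counted lengths. The gene (ENSG00000110092, transcript ENST00000227507, 5 exons) lies at chr11:69455924-69469242 on the plus strand of GRCh37, the build of the annotation used here. CCND1 had 258, 282, 185 and 191 counts in RNA-seq replicates 1 to 4, which were 15.7, 16.2, 16.7 and 15.04 TPM, or 15.9 ± 0.72 (SD, n = 4). In PRO-seq it had 251 and 306 counts, which were 78.8 and 94.2 TPM, or 86.5 ± 10.9 (SD, n = 2). The PRO-seq level was above that of 89.1% of mRNAs and the RNA level above that of 66.5%. Its log2 half-life was -1.81 (SE 0.092, edgeR adjusted p = 6.6e-18), or 0.286 times the median mRNA, and was above that of 13.0% of mRNAs. All 8 combinations of 1 RNA-seq with 1 PRO-seq library were below the median mRNA, from -2.01 to -1.62. The PRO-seq window of LTO1, on the other strand, shares 399 bp with that of CCND1, and LTO1 had 614 and 685 PRO-seq counts of its own. LTO1 also shares 497 of the 4238 exon bases of CCND1, and had 47 to 93 RNA-seq counts. Whether RNA-seq reads were counted by strand is not known, as described for CCNE2 below.

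CCND3, a D-type cyclin prominent in blood cells, had more RNA than CCND1 in every library, while the side of the median mRNA on which its half-life lay turned with the length assumed. CCND3 had 1229, 1312, 823 and 979 RNA-seq counts, which were 132.0, 133.5, 131.6 and 136.4 TPM, or 133 ± 2.19 (SD, n = 4). Its PRO-seq counts of 972 and 1060 were 32.9 and 35.1 TPM, or 34.0 ± 1.62 (SD, n = 2). The 4 RNA-seq values were all above the highest of CCND1, and both PRO-seq values, on the counted window, were below the lowest of CCND1. Its log2 half-life was 2.61 (SE 0.051, edgeR adjusted p = 6.6e-29), or 6.10 times the median mRNA, with combinations from 2.55 to 2.67. This value rests on a transcript other than the canonical one. The counted transcript (ENST00000511642, 5 exons, chr6:41902672-42018095, minus strand, GRCh37) begins 108549 bp upstream of the canonical transcript ENST00000372991 (chr6:41902690-41909546), and 5.57% of its PRO-seq window of 114424 bp lies in the canonical transcript. With all counts placed in the canonical part, the log2 half-life would be -1.04, on the other side of the median mRNA.

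CCND2 was measured as RNA alone. CCND2 (ENST00000261254, 5 exons, chr12:4382928-4414519, plus strand, GRCh37) had 1414, 1484, 975 and 1141 RNA-seq counts, which were 56.0, 55.7, 57.5 and 58.6 TPM, or 57.0 ± 1.37 (SD, n = 4), above the level of 84.4% of mRNAs. It had 0 PRO-seq counts in both libraries. Its whole PRO-seq window of 30592 bp is shared on the same strand with another counted TU, ENSG00000285901, which had 101 and 80 PRO-seq counts and 0 RNA-seq counts. Of 174 mRNAs with at least 100 RNA-seq counts whose window is wholly shared in this way, 163 (93.7%) had 0 PRO-seq counts, against 8 of 5700 (0.140%) with no shared base. No level of transcription and no half-life was therefore read for CCND2. The CCND2 RNA was 3.43 to 3.90 times that of CCND1 and 0.417 to 0.437 times that of CCND3. Of the 6493 exon bases of CCND2, 999 (15.4%) are also shared with another counted TU on the same strand. Among 67 mRNAs with at least 100 PRO-seq counts and all exon bases so shared, 66 had 0 RNA-seq counts. The RNA level of CCND2 and these ratios may therefore be too low.

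The 3 D-type cyclins each hold the letters TGCTGCT once in the 3' UTR, which pair with the seed of miR-15a and miR-16, microRNAs known for repressing G1 cyclins. The mature miRNAs (RefSeq, GRCh38.p14), 5' to 3' with the seed, bases 2 to 8, in capitals, and the sites with the match in capitals are shown because CCND1, CCND2, CCND3, CDK6 and CCNE1 share the match, while neither B-type cyclin holds it.
miR-16-5p: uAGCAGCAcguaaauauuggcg
miR-15a-5p: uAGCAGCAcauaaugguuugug
CCND1, chr11:69468069-69468090, plus strand: tctttcacattgttTGCTGCTa
CCND2, chr12:4410925-4410946, plus strand: tgtttcacagagtgTGCTGCTa
CCND3, chr6:41903057-41903078, minus strand: gtgattgacagcttTGCTGCTg
CDK6, chr7:92238974-92238995, minus strand: acacataccctctcTGCTGCTt
CDK6, chr7:92238064-92238085, minus strand: aggtcagagtgcccTGCTGCTg
CCNE1, chr19:30314917-30314938, plus strand: gtgcgtgctcccgaTGCTGCTa
CCNE1, chr19:30315155-30315176, plus strand: aactgttttgtaagTGCTGCTa
The sites are 3' UTR sequence on GRCh37. The same letters occur in the 3' UTR of 24.6% of 8137 mRNAs with an estimate. None of the 10 genes holds the let-7 match CTACCTC, which 10.5% of the mRNAs hold. The genes with the miR-15/16 match had log2 half-lives from -1.81 (CCND1) to 2.61 (CCND3), and those without it from 0.02 (CCNE2) to 3.97 (CDK4), so the ranges overlapped. The miRNAs themselves were not measured.

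CDK4 and CDK6 are the catalytic partners of the D-type cyclins, and CDK4 had more RNA than CDK6 in every library. CDK6 stood to CDK4 as 1.03 to 1.27 in PRO-seq and as 0.0957 to 0.104 in RNA-seq, on the counted lengths. CDK4 had 919, 952, 628 and 708 RNA-seq counts, which were 528.7, 518.9, 537.9 and 528.5 TPM, or 528 ± 7.75 (SD, n = 4). Its 57 and 47 PRO-seq counts, the lowest of the 8 genes, were 58.0 and 46.9 TPM, or 52.5 ± 7.84 (SD, n = 2). Its log2 half-life of 3.97 (SE 0.100, edgeR adjusted p = 6.8e-26), or 15.6 times the median mRNA, was the highest of the set on the counted lengths and above that of 99.0% of mRNAs. Here too the counted transcript is not the canonical one. It is ENST00000552862, with 3 exons and 447 exon bases at chr12:58144998-58149796 on the minus strand of GRCh37, which begins 3703 bp upstream of the canonical ENST00000257904 (chr12:58141510-58146093). It holds 19.6% of the canonical exon bases, and 15.7% of its PRO-seq window of 3799 bp lies in the canonical transcript. With all counts placed in the canonical part the log2 half-life would be 1.59, still above the median mRNA, and its PRO-seq level would be 370 and 299 TPM, above both values of CDK6.

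CDK6 was counted on almost its whole canonical transcript. Its counted transcript ENST00000265734 (8 exons, chr7:92234235-92463231, minus strand, GRCh37) has 99.2% of the canonical exon bases and a PRO-seq window of 227997 bp, the longest of the set. CDK6 had 2361, 2390, 1692 and 1760 RNA-seq counts, which were 52.3, 50.1, 55.8 and 50.6 TPM, or 52.2 ± 2.57 (SD, n = 4). The PRO-seq counts of 3530 and 3576 were 59.9 and 59.5 TPM. Its log2 half-life was 0.44 (SE 0.042, edgeR adjusted p = 2.6e-11), or 1.36 times the median mRNA, with combinations from 0.36 to 0.55. It was not more than 2-fold from the median mRNA when that was tested (edgeR adjusted p = 1).

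The E-type cyclins were close to the median mRNA. CCNE1 (ENST00000262643, 12 exons, chr19:30302898-30315219, plus strand, GRCh37) had 318, 377, 207 and 270 RNA-seq counts, which were 41.9, 47.0, 40.6 and 46.1 TPM, or 43.9 ± 3.16 (SD, n = 4). Its PRO-seq counts of 156 and 148 were 53.3 and 49.6 TPM. Its log2 half-life was 0.41 (SE 0.100, edgeR adjusted p = 0.00032), or 1.33 times the median mRNA. Like CDK6 it was not more than 2-fold away (edgeR adjusted p = 1). CCNE2 (ENST00000520509, 12 exons, chr8:95891998-95908906, minus strand, GRCh37) had 340, 427, 267 and 273 RNA-seq counts, which were 26.3, 31.2, 30.7 and 27.4 TPM, or 28.9 ± 2.46 (SD, n = 4). Its PRO-seq counts of 163 and 205 were 39.6 and 48.9 TPM. CCNE2 was not separated from the median mRNA, at 0.02 (SE 0.101, edgeR adjusted p = 0.85) with combinations from -0.24 to 0.28. The counted transcript of CCNE2 is not the canonical one, which holds 2649 of its 3330 exon bases. With all counts placed in the canonical part, the log2 half-life of CCNE2 would be 0.26. INTS8 and NDUFAF6, on the other strand, share 1628 of the 3330 exon bases counted for CCNE2, and INTS8 had 938 to 1517 RNA-seq counts. No source used here says whether RNA-seq reads were counted by strand, and 1 mRNA alone could show it, so reads of INTS8 within CCNE2 cannot be told apart.

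The B-type cyclins were both above the median mRNA in half-life, with CCNB1 the higher. On the counted windows they kept nearly the same proportion to each other in both assays. CCNB1 (ENST00000256442, 9 exons, chr5:68462977-68474072, plus strand, GRCh37) had 3859, 4056, 2665 and 2996 RNA-seq counts, which were 489.1, 487.1, 502.9 and 492.7 TPM, or 493 ± 7.03 (SD, n = 4). Its 448 and 454 PRO-seq counts were 171.6 and 170.6 TPM, the highest of the set on the counted windows and above 96.8% of mRNAs. Its log2 half-life was 2.16 (SE 0.050, edgeR adjusted p = 5.8e-27), or 4.48 times the median mRNA. CCNB2 (ENST00000288207, 9 exons, chr15:59397345-59417244, plus strand, GRCh37) had 925, 898, 652 and 734 RNA-seq counts, which were 159.9, 147.0, 167.8 and 164.6 TPM, or 160 ± 9.11 (SD, n = 4). Its PRO-seq counts of 293 and 289 were 60.0 and 58.0 TPM. Its log2 half-life was 2.07 (SE 0.072, edgeR adjusted p = 2.8e-22), or 4.20 times the median mRNA. The PRO-seq window of a noncoding TU on the same strand, ENSG00000259732, shares 3012 bp with that of CCNB2, which is 15.9% of the latter. This TU had 150 and 141 PRO-seq counts. With lengths taken without shared bases, the log2 half-life was 1.85 for CCNB2 and 2.19 for CCNB1. They lay further apart than on the counted windows. The ratios and shares given below keep the whole window of CCNB2.

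On the counted windows, CCNB1 stood to CCNB2 as 2.99 to 3.31 in RNA-seq and as 2.86 to 2.94 in PRO-seq. These ratios lay close without overlapping. Their promoters are shown because both genes hold repeated CCAAT letters, the motif bound by NF-Y, a factor known for G2 and M phase genes. Each sequence (RefSeq, GRCh38.p14) runs 5' to 3' on the plus strand from 250 bases before the start to 50 bases after it, with CCAAT and, in CCNB2, the cell cycle homology region (CHR) letters TTTGAA in capitals.
CCNB1, chr5:69166900-69167199: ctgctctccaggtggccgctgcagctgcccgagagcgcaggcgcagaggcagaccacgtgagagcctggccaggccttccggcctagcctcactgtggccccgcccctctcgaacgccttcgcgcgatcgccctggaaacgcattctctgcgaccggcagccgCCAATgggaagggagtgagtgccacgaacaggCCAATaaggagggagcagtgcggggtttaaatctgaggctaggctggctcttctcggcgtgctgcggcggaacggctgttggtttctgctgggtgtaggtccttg
CCNB2, chr15:59104896-59105195: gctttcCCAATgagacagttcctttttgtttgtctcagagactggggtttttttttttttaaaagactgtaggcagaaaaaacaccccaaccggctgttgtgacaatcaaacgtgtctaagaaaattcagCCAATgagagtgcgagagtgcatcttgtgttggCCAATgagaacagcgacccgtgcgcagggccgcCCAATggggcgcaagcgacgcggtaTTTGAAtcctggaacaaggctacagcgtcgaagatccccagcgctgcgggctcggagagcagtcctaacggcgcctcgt
CCNB1 holds CCAAT at positions -87 and -55, counted from the start, and CCNB2 at -244, -120, -87 and -54, with TTTGAA at -29. Searched on both strands, CCAAT was found at least once in 34.6% and at least 2 times in 10.8% of 35116 promoters, and TTTGAA in 15.2%. The promoter of CCNA2 holds CCAAT once, on the other strand at -56, and those of CCND3, CDK4, CDK6 and CCNE1 hold neither motif. Another CHR form, TTCGAA, which 1.45% of promoters hold, was found in none of these 7 promoters. No further CHR form was searched, so a CHR in the other promoters is not excluded. The E2F letters TTTGGCGC, TTTCGCGC and TTTCCCGC, of which 2.74% hold at least 1, were found in none of the 7 either. Of the 10 genes, CCND1, CCND2 and CCNE2 had no promoter entry.

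How far a half-life can be read depends on where the counts were taken. The PRO-seq windows of CCND1, CDK6, CCNE1, CCNB1 and CCNB2 lie wholly in the canonical transcript, and that of CCNE2 lies there to 93.9%. Windows like those of CCND3 and CDK4, with under 20% in the canonical transcript, belonged to 198 mRNAs (2.27%). Their median log2 half-life was 0.75, with quartiles of -1.21 and 1.90, beside -0.02 for the 7624 mRNAs with over 80% of the window in the canonical transcript. On the other strand, MARCHF9 (38 and 49 PRO-seq counts) overlaps CDK4 by 911 bp, though the PRO-seq windows of both genes share no base. Also on the other strand, CCND2-AS1 (33 and 28) overlaps CCND2, and ENSG00000223946 (0 in both) overlaps CCND3. The only counted pseudogene named after 1 of these genes, CCNB2P1, had 0 counts in both assays. The part of the window in the values of CCND3 and CDK4 was not tested.

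**Figure D2:**
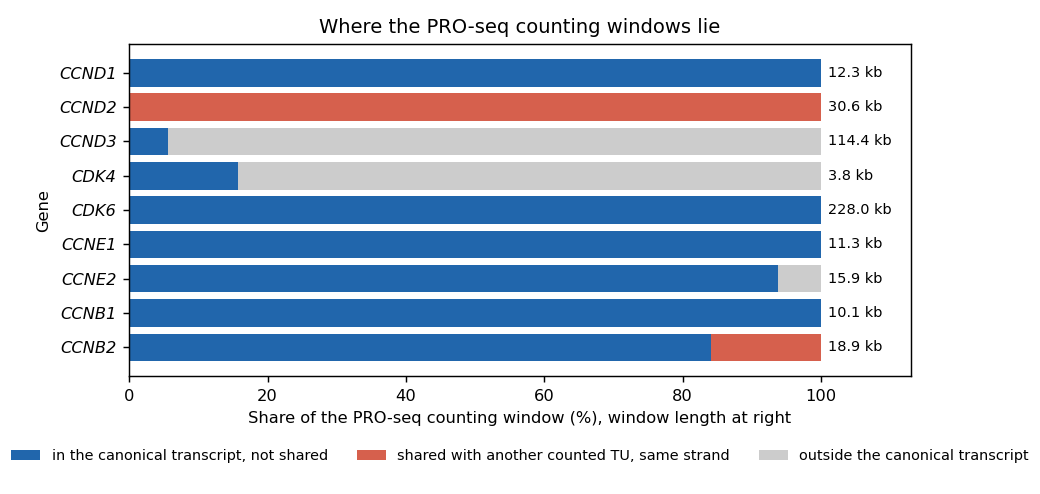
Share of each PRO-seq counting window (horizontal axis, percent) that lies in the canonical transcript and is unshared (blue), is shared on the same strand with another counted TU (red), or lies outside the canonical transcript (grey), with window lengths in kb. CCND2 is wholly shared, and CCND3 and CDK4 lie mostly outside.

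Ordered by half-life, the 8 genes ran CDK4, CCND3, CCNB1, CCNB2, CDK6, CCNE1, CCNE2 and CCND1. CDK4 exceeded CCND3, CCND3 exceeded CCNB1, CCNB2 exceeded CDK6 and CCNE2 exceeded CCND1 in all 8 library combinations, with no overlap of their ranges. CCNB1 exceeded CCNB2 in all 8 combinations, by 0.03 to 0.21, although their ranges overlapped. The other neighbours did not differ beyond their spread, since CDK6 was above CCNE1 in 4 of the 8 combinations, and CCNE1 exceeded CCNE2 in 7 of 8, by -0.03 to 0.73. The places of CDK4 and CCND3 rest on the lengths assumed. With all counts placed in the canonical part the order would be CCNB1, CCNB2, CDK4, CDK6, CCNE1, CCNE2, CCND3 and CCND1, with 1 of the 8 genes, CCND1, in the same place.

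**Figure D3:**
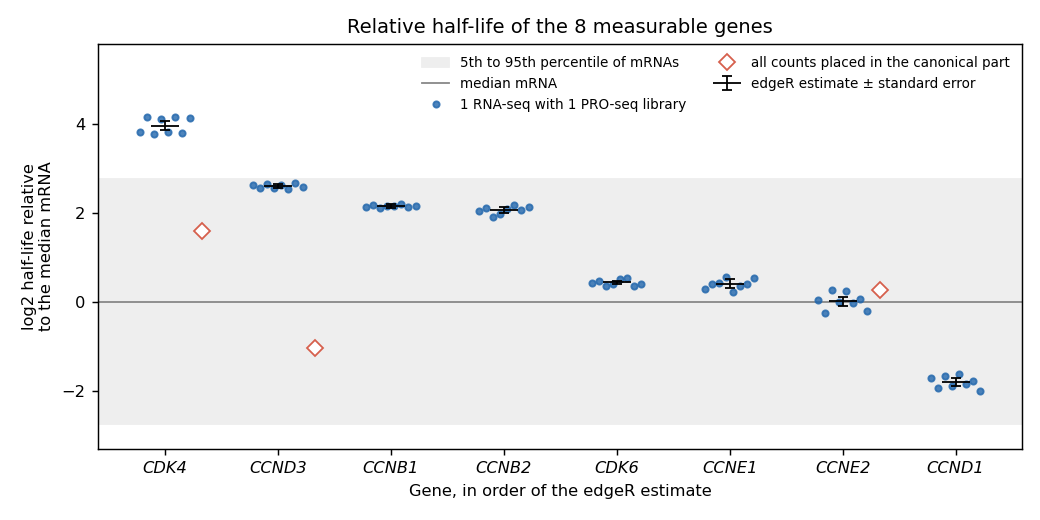
Log2 half-life against the median mRNA (grey line) for the 8 genes, as the edgeR estimate with its standard error (black) and the 8 combinations of 1 RNA-seq with 1 PRO-seq library (blue). The grey band spans the 5th to 95th percentile of mRNAs, and the open diamonds, for genes counted on another transcript, place all counts in the canonical part, which moves CCND3 to -1.04 and CDK4 to 1.59.

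The division of related genes between assays was compared as shares of their summed TPM. CCNB1 made up 75.5 ± 0.874% of B-type cyclin RNA (SD, n = 4) and 74.4 ± 0.365% of the transcription (SD, n = 2). The window of CCNB2 was taken whole here, with its shared bases. CCNE1 made up 60.3 ± 2.51% of E-type RNA and 53.9 ± 4.95% of the transcription, with overlapping libraries (two-sided exact permutation test, p = 0.267). CCND3 was 89.3 ± 0.559% of the RNA of CCND1 and CCND3 but 28.3 ± 1.60% of the transcription, and CDK6 was 8.99 ± 0.296% of the RNA of both kinases but 53.3 ± 3.62% of the transcription. Libraries did not overlap for the B-type, D-type and kinase pairs, each with p = 0.133 in the same exact permutation test, the smallest that 4 libraries against 2 allow, so none could pass 0.05. Adjusted by Benjamini-Hochberg over the 4 pairs, these exact p-values were 0.178 and that of the E-type pair was 0.267. Counting CCND2 too, the D-type RNA was 7.71 ± 0.411% CCND1, 27.6 ± 0.390% CCND2 and 64.7 ± 0.491% CCND3. The CCND2 share may be too low, given its shared exon bases. The contrasts for CCND3 and CDK6 rest on the windows described above. With all counts placed in the canonical part, CCND3 would be 92.3 ± 0.416% of the RNA and 87.6 ± 0.855% of the transcription of its pair, and CDK6 7.46 ± 0.250% and 15.3 ± 1.88%. CCNE1 would then be 54.7 ± 2.59% of the RNA and 52.3 ± 4.96% of the transcription of its pair. The CCNB1 difference between assays was 1.16 percentage points and 0.737 without RNA-seq replicate 2. The CCNE1 difference was 6.45 percentage points, 9.94 without PRO-seq replicate 1 and 2.95 without PRO-seq replicate 2.

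**Figure D4:**
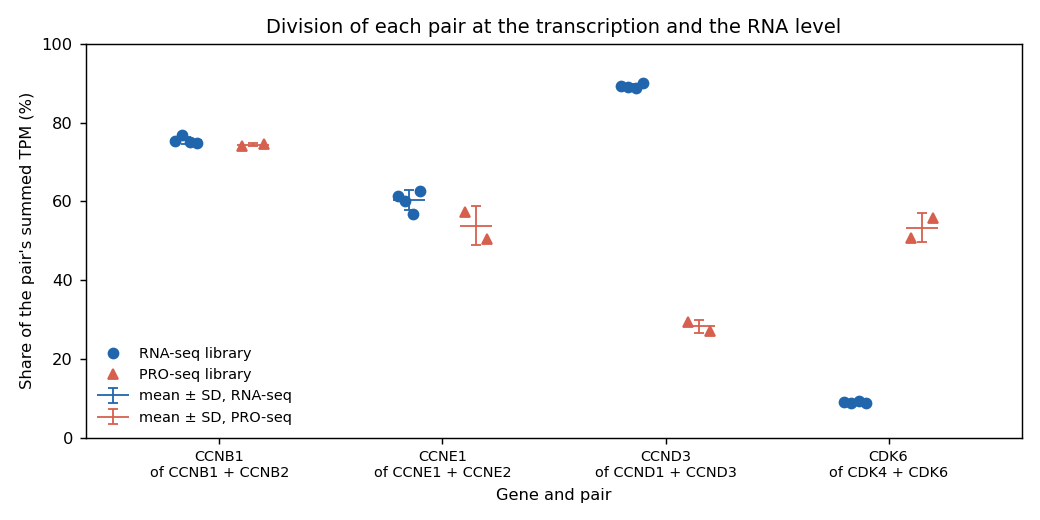
Share of each pair's summed TPM (percent) held by 1 gene in each RNA-seq library (blue circles) and PRO-seq library (red triangles), with means ± SD. On the counted lengths, the CCNB1 share was about the same in both assays (75.5% and 74.4%). That of CCND3 was 89.3% in RNA and 28.3% in transcription, and that of CDK6 was 8.99% and 53.3%.

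Other genes that act with the cyclins were taken from 7 lists of 46 genes. Of these, 45 were matched and 37 tested, and 17 were above and 18 below the median mRNA, with a median of -0.02, near the shares among all mRNAs given above. Both catalytic partners were above, CDK1 at 2.73 (SE 0.054, edgeR adjusted p = 8.2e-29) and CDK2 at 1.54 (SE 0.109, edgeR adjusted p = 3.1e-14). CDK1, the partner of the B-type cyclins, had 554 to 592 TPM in RNA-seq and 144 and 125 TPM in PRO-seq. Of the CDK-activating kinase, CDK7 (2.15) and its cyclin CCNH (1.31) were above, although 19.4% of the window of CCNH lies in its canonical transcript, and MNAT1 was under the PRO-seq limit. Both CKS proteins, small adaptors of CDK complexes, were above, CKS1B at 1.33 and CKS2 at 0.98.

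The inhibitors and regulators of CDK activity went both ways. Of 7 CDK inhibitors 5 were tested, with CDKN2C (1.38) and CDKN1B (0.38) above and CDKN2D (-1.19) and CDKN1A (-0.52) below. CDKN2D had only 9 and 12 PRO-seq counts (SE 0.393). The counted transcript of CDKN1B holds 12.4% of its canonical exon bases, and 30.2% of the window of CDKN2C lies in its canonical transcript. CDKN2A, the CDK4 and CDK6 inhibitor p16, had 1 RNA-seq count in all and CDKN2B had 0. Of the CDC25 phosphatases, which activate CDKs, CDC25B (0.73) and CDC25C (0.29) were above, while the inhibitory kinases WEE1 (-1.29) and PKMYT1 (-1.73) were below. CDC25A, at -0.25, was below too. Of the PRO-seq window, 50.7% lies in the canonical transcript for CDC25B and 62.8% for PKMYT1. CDC25B was near the PRO-seq limit, at 8.64 and 12.4 TPM (SE 0.179).

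Among the 10 genes of cyclin degradation, 5 were above and 5 below, with a median of -0.05. SKP2 (1.19) and CDC20 (0.78), which guide ubiquitin ligases to their substrates, were highest. FBXO5, an inhibitor of the anaphase-promoting complex, was at -0.93, and UBE2C, the E2 enzyme of that complex, was lowest at -3.84 with 2, 7, 1 and 5 RNA-seq counts beside 30 and 40 PRO-seq counts. Of 17 other cyclins 11 were tested, with 2 above, 8 below and a median of -0.77. CCNC (1.88), of the Mediator kinase module, and CCNY (1.67) were above, and CCNO (-2.44) and CCNL1 (-2.10), a cyclin linked to splicing, were lowest. The window of CCNY lies in its canonical transcript to 72.5%, and the counted transcript of CCNL1 holds 55.3% of its canonical exon bases. CCNO had only 6 counts in each PRO-seq library and 4 to 13 in RNA-seq. With an SE of 0.586, beside 0.055 for CCNL1, the place of CCNO below CCNL1 is not certain. CCNG1 was not matched.

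**Figure D5:**
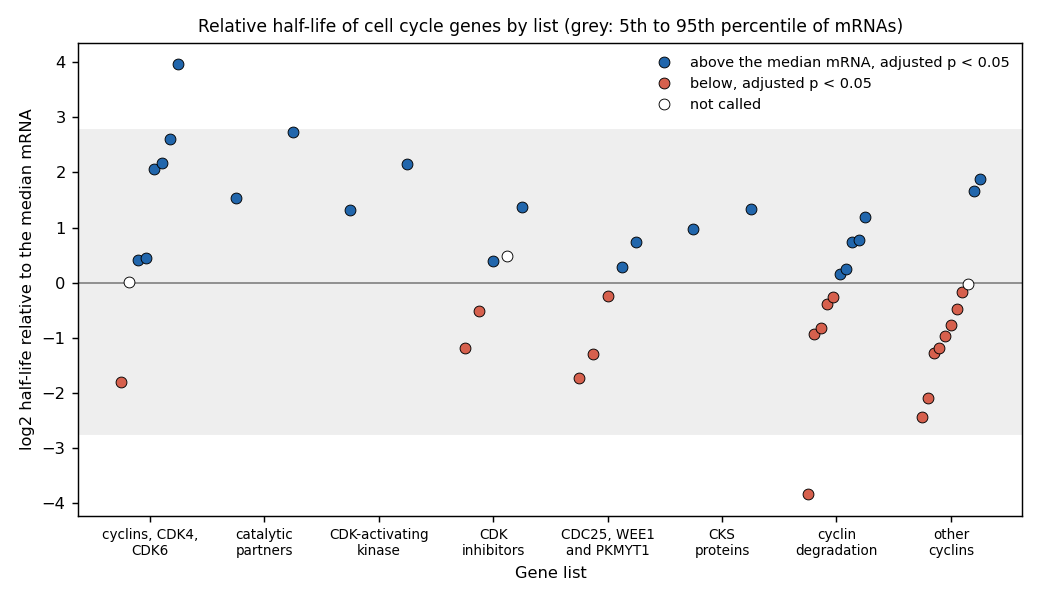
Log2 half-life against the median mRNA for the 8 genes (first column) and the 37 tested genes of the 7 lists, coloured by the edgeR call (blue above, red below, white not called), with the 5th to 95th percentile of mRNAs in grey. Both genes of the catalytic partners, the tested CDK-activating kinase genes and the CKS proteins lie above, and 8 of the 11 other cyclins lie below.

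The 3' UTRs of the genes differed widely in length and in ATTTA letters, the core of AU-rich elements, which are known to mark RNAs for decay. CDK6 has the longest, at 10219 bases with 26 matches, followed by CCND2 with 5344 bases and 8 matches and CCND1 with 3192 bases and 7 matches. Per kb, CCNB1 (6.51) and CCNE2 (5.91) hold more than CDK6 (2.54) and CCND1 (2.19), and CCNE1, CCNB2 and the canonical transcript of CDK4 hold none. The median mRNA had 1.59 per kb over a 3' UTR of 1241 bases, and 71.3% of mRNAs held at least 1. The 30 bases with the most matches, first in order where several tie, are shown for CCND1, below the median mRNA, and for CCNB1, above it, with ATTTA in capitals, because the same letters occur in both.
CCND1, chr11:69467449-69467478, plus strand, GRCh37: ATTTAtagttaaggctaaaaagtatATTTA
CCNB1, chr5:68473922-68473951, plus strand, GRCh37: ttctaagttATTTActtttaccactATTTA
The Pumilio letters TGTANATA occur in CCND2, CCNE2, CCNB1 and CCNB2, and in 28.4% of mRNAs. CCNB1 had more ATTTA per kb than CCND1 but fewer in all, 4 matches against 7. Their log2 half-lives were 2.16 and -1.81, and a link between ATTTA and half-life was not tested.

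For each of the 8 genes, the mRNA with the most similar levels was the one with the smallest root mean square difference of log2 TPM over the 6 libraries, among 8732 mRNAs. It was MTSS2 for CCND1 (0.062), TMEM9 for CCND3 (0.073), ATP5MJ for CDK4 (0.063), RAB4A for CDK6 (0.048) and ATR for CCNE1 (0.057). It was VPS4B for CCNE2 (0.074), PRDX6 for CCNB1 (0.041) and CHEK1 for CCNB2 (0.088). All used the counted lengths, so those named for CCND3 and CDK4 rest on the windows described above.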

How the data were processed

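For each library, the authors deposited raw counts of reads per transcript made with HTSeq. Reads had been trimmed (Cutadapt) and aligned to GRCh38 (HISAT2). No source used here gives the versions. For PRO-seq, 500 bp at each end of a TU were left out. Rows naming no TU were left out. They held 66.5% to 68.6% of the records in RNA-seq, and 86.5% and 88.6% in PRO-seq. Of 42371 transcripts, 37339 were matched by identifier to GENCODE lifted to GRCh37, which gave lengths and coordinates. Lengths may differ from those counted on, and overlaps with unmatched transcripts were not checked.

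TPM was computed per library. RNA-seq was compared with PRO-seq by edgeR (4.0.16, R 4.3.3) with TMM normalization, length offsets and centring at the median mRNA. DESeq2 (1.42.0), other limits, lengths and centres, the replicate block and each library left out were alternatives, and 3 were added after seeing the data. Python 3.11.15 was used otherwise. On simulated data with 9929 TUs, the comparison of RNA-seq with PRO-seq recovered 91% of 100 log2 changes of 1 and 100% of 100 log2 changes of 2. It also called 9 unchanged TUs. Few TUs differed in the simulation, and all had the same dispersion, whereas most mRNAs were called in the real data. These rates therefore cannot be carried over to the real data.

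The genes and lists were chosen with earlier results of these data known. Named are all 10 genes, the genes overlapping them, the nearest mRNA of each, CDK1, CDK2, and in each list the 2 highest and 2 lowest called. CDC25A, CDKN2A, CDKN2B, MNAT1 and CCNG1 were named after their values were seen. RNA-seq replicates 1 and 3 (chi-square per degree of freedom 1.11) and 2 and 4 (1.12) were closer than other pairs (1.74 to 2.11) but differed by more than sampling noise, and were kept as separate libraries. No label says that equal replicate numbers in the 2 assays mark a shared sample.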

Additional observations from a re-analysis of the deposited data

Results flagged for a closer look

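ENSG00000285901, the TU that spans all of CCND2 on the same strand and enters no comparison, had 101 and 80 PRO-seq counts in replicates 1 and 2, where CCND2 itself had 0. It had 0 counts in all 4 RNA-seq libraries. It is given here as signal outside the genes compared, above the limit that a count of 0 allows. For none of the 9 matched genes did 1 of the 4 RNA-seq libraries lie far from the others, and the 2 PRO-seq libraries are too few for that test.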

How the results depend on the processing

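For each gene 15 or 16 alternatives were computed, and the half-lives of CCND1, CDK4, CDK6, CCNE1, CCNB1 and CCNB2 kept their direction in all of them, ranging from -1.91 to -1.15, 1.59 to 4.63, 0.39 to 1.10, 0.35 to 1.07, 2.13 to 2.82 and 1.85 to 2.73. With all counts placed in the canonical part, CCND3 turned to -1.04, CDK4 was 1.59 and CCNE2 was 0.26, through the shorter lengths alone. Tested for a 2-fold difference, CDK6 (0.44) and CCNE1 (0.41) were no longer called (edgeR adjusted p = 1 for both). CCNE2, near 0, ranged from -0.11 to 0.16 with each library left out, with edgeR adjusted p from 0.26 to 0.98, and was -0.018 with stricter limits (20 TPM for PRO-seq, 2 TPM for RNA-seq). It became called at 0.68 (edgeR adjusted p = 3e-12) without TPM limits and at 0.25 (edgeR adjusted p = 0.022) with the centre at all TUs, settings that moved the median by 0.66 and 0.23. The list genes above and below numbered 26 and 9 without TPM limits and 9 and 6 in the 2-fold test, instead of 17 and 18. Without lengths, the RNA-seq minus PRO-seq difference in share was 4.03 percentage points for CCND3, 20.02 for CCNB1 and -26.6 for CDK6, instead of 61.1, 1.16 and -44.4. Placed in the canonical part it was 4.72 for CCND3, 2.44 for CCNE1 and -7.80 for CDK6, and 1 of the 8 genes kept its place in the order. With 500 bp removed for PRO-seq, 6 of the 8 kept theirs. The replicate block left CCNE2 at 0.02 and changed no call of the 8 genes. The differences between replicates 1 and 2 were uncorrelated between assays (-0.01 over 9841 TUs). This cannot decide whether equal numbers mark a shared sample, since the spread between libraries is technical. CDK4 had the fewest PRO-seq counts of the 8 genes, 57 and 47, which limits its precision.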
